A study of Mus musculus with 12 samples.

Results

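Liver RNA of mice given daily injections was compared with liver RNA of mice recorded as receiving none, and the genes described are those that shifted the same way whichever compound was injected. All 12 arrays of the series entered, 9 from injected mice and 3 from controls. The 9 injected arrays fell into 3 groups of 3, and each injected group counted equally. Male C57BL/6 mice aged 8 weeks were used throughout. One group received L-T3 (liothyronine, the active thyroid hormone triiodothyronine) for 3 days. Another received XCT790, an inverse agonist of the nuclear receptor ESRRA (estrogen-related receptor alpha), for 4 days. The remaining injected group received XCT790 for 4 days with L-T3 on the last 3. All injections were into the abdominal cavity, and the labels name no transgene or deleted gene in any group. The control label gives no injection and does not say whether a vehicle or a handling procedure was applied. Injection, vehicle, handling and the compounds therefore cannot be told apart in any change that all injected groups share. The numbers 1 to 3 within a group are not said to mark separate mice, so the p-values rest on a spread between arrays that may be technical only.

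A liver responds to many signals that reach it with any procedure done to the animal. Adrenal glucocorticoids bind the glucocorticoid receptor, which switches on metallothioneins, the receptor's own co-chaperone Fkbp5 and enzymes that mobilise glucose and fat. Food intake and the time of day act on the same organ through insulin, the fatty acid receptor PPARA and the circadian clock, and the pulses of growth hormone typical of male mice keep a set of male-biased enzymes high. Thyroid hormone acts through its own nuclear receptor, and XCT790 lowers the activity of ESRRA, a receptor known for its role in genes of mitochondrial energy metabolism.

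A gene was called where its adjusted p (limma, two-sided, Benjamini-Hochberg over 9747 genes) was under 0.05. It was called alike where this held, with the same sign, for each of the 3 injected groups against control. The 3 comparisons use the same 3 control arrays, so a control level that was high or low by chance moves all 3 of them the same way. In the mean of the injected groups 1420 genes were called, 14.6% of those tested, with 665 higher (6.82%) and 755 lower (7.75%). For T3 1567 genes were called (16.1%), 7.22% of those tested higher and 8.85% lower. For XCT790 430 were called (4.41%), 2.26% higher and 2.15% lower. For XCT790 with T3 1815 were called (18.6%), 8.93% higher and 9.70% lower. Alike in all 3 were 183 genes, 1.88% of those tested, of which 99 were higher (1.02%) and 84 lower (0.862%).

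The alike genes depended on single arrays. Their number was 98 without XCT790 array 1 and 102 without control array 2, and 67 of the 183 were called alike in all 12 fits that left out 1 array each. The number called for the mean was 849 without control array 2. With arrays scaled to the median of all their probes in place of quantile normalization, a setting chosen after the data were seen, 105 genes were alike, 95 of them among the 183. That scaling lowered the median change of all genes to -0.13 on the log2 scale, from -0.01.

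Across the 12 arrays 31.9% to 35.6% of 45281 probes were detected, and over the genes tested the correlation within a group was 0.989 to 0.992. The brightest array by summed intensity was XCT790 array 3. The tissue matched its label: probes for the hepatocyte products transthyretin (Ttr) and apolipoprotein A-I (Apoa1) were detected on 12 arrays, although the albumin probe was detected on 7. Markers of other cells were mixed. Cdh5 of endothelium, Clec4f of Kupffer cells, Upk3b of mesothelium and the globin Hba-a1 of red cells were detected on 12 arrays each, and S100a8 of neutrophils on 10. Its partner S100a9 and Cd3e of T cells were detected on 2 arrays each, Adipoq of fat cells and Col1a1 of fibroblasts on 1 each, and keratin 19 and Epcam of bile ducts and mesothelin (Msln) of mesothelium on 0. In whole tissue, fewer cells of a type and less RNA per cell cannot be told apart. Slide and scan order are not given in the sources used here, so a batch could not be examined.

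**Figure D1:**
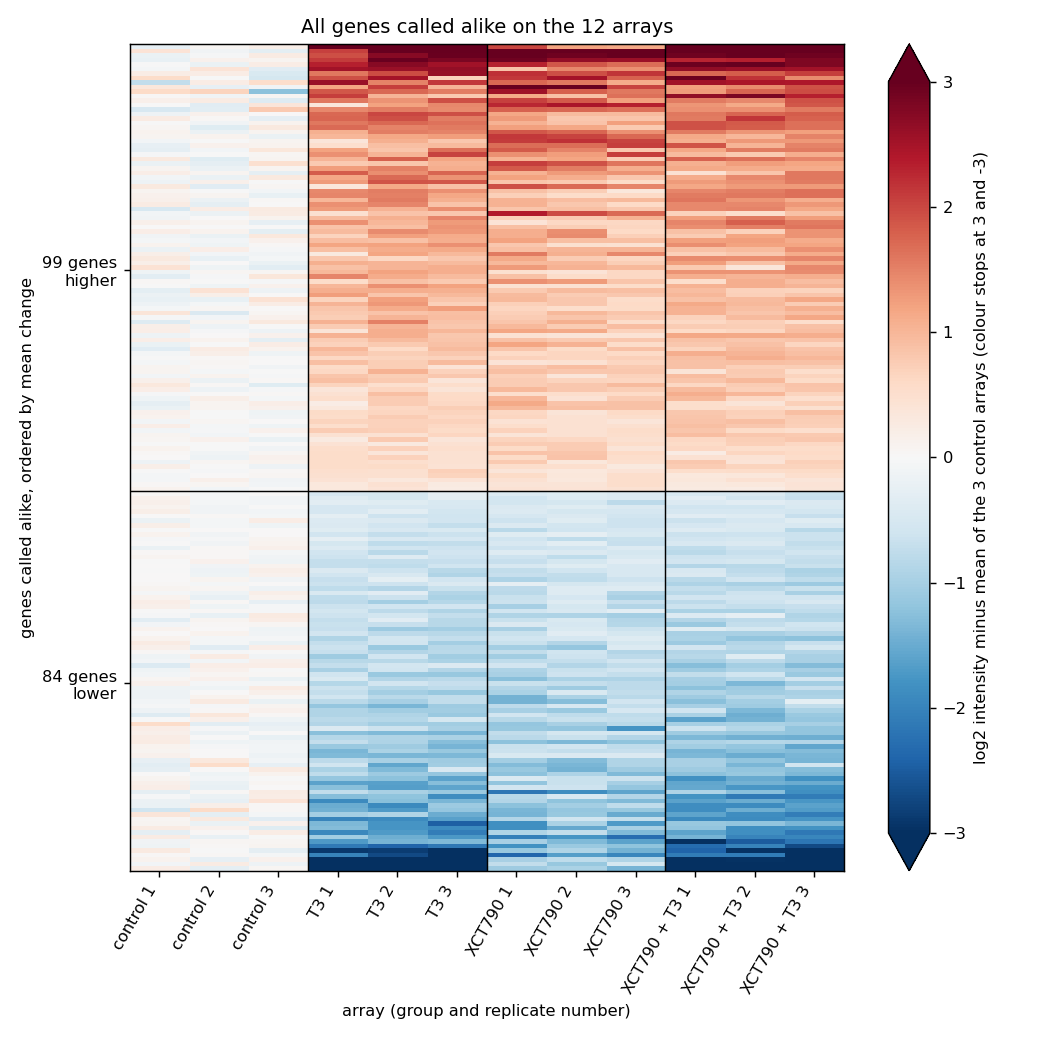
Log2 intensity of the 183 genes called alike (vertical axis, ordered by mean change) on the 12 arrays (horizontal axis), each minus the gene's mean over the 3 control arrays. The 99 genes above the line are redder, and the 84 below it bluer, on injected than on control arrays; 181 of the 183 do not overlap between the 9 injected and the 3 control arrays.

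The heat map of alike genes shows the size of these shifts. Among genes that rose, the mean log2 change ran from 0.35 to 4.10 with a median of 0.99. Among genes that fell it ran from -0.46 to -2.73 with a median of -0.85. A mean change of at least 1 on the log2 scale was found in 49 of the genes that rose and 31 of those that fell. The 9 injected arrays did not overlap the 3 control arrays in 181 of the 183. Over all genes tested 7.40% did not overlap, 3.41% with the injected arrays above and 3.99% with them below, and the calls themselves nearly require it. The exceptions were Nrg4 and Vcam1.

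The promoters of Mt1 and Ciart are shown because Mt1 had the largest alike rise among glucocorticoid-induced genes and Ciart the most even rise among clock genes. The sequences are the 250 bases before the start of transcription on the gene's own strand, from RefSeq on GRCm38.p6, for Mt1 at chr8:94178839-94179088 (plus strand) and Ciart at chr3:95882229-95882478 (minus strand). In Mt1 capitals mark a match to the glucocorticoid response element, GNACA and TGTNC with 3 free bases between, and a match to the metal response element TGCACNC. In Ciart they mark matches to the E-box CACGTG, the element bound by the clock proteins CLOCK and BMAL1. The third line is a match to the glucocorticoid element with its flanks upstream of Map3k6, at chr4:133240628-133240658 on the plus strand.
Mt1: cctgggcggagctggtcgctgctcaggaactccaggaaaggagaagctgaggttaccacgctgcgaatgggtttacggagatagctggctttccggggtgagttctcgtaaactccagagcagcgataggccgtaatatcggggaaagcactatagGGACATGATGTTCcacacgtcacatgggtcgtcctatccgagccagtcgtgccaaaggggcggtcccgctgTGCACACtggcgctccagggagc
Ciart: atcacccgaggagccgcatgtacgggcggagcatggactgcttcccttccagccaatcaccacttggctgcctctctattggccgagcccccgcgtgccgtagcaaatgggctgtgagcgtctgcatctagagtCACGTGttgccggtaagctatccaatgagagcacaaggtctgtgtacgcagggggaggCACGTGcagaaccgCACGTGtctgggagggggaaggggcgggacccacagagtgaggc
Map3k6: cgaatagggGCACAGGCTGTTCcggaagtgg

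Both strands were searched. A promoter was matched for 140 of the 183 alike genes, 78 higher and 62 lower. The glucocorticoid element stood in 2 of the 78 promoters of genes that rose (2.56%), those of Mt1 and Map3k6, in 0 of the 62 of genes that fell, in 0.329% of those of all genes tested and in 0.440% of all 27025 promoters. An E-box stood in 12.8% of the promoters of genes that rose, 14.5% of those that fell, 10.3% of those of all genes tested and 6.86% of all promoters. Ciart held 3 E-boxes in these 250 bases, beginning 116, 58 and 44 bases before the start. The metal response element TGCACNC stood in 15.4% of promoters of genes that rose, 19.4% of those that fell, 12.9% of those of genes tested and 11.8% of all. The PPAR direct repeat, AGGTCA and AGGTCA with 1 free base between, was in 0 promoters of alike genes, 0.0379% of those of genes tested and 0.0407% of all. The ERR core AAGGTCA was in 2.56% of promoters of genes that rose, 6.45% of those that fell, 3.78% of those of genes tested and 4.70% of all. The metal element in its G form, TGCGCNC, stood in 25.6% and 24.2% of the same promoters, 24.2% of those of genes tested and 14.0% of all. The D-box TTATGNAA stood in 5.13% and 3.23%, 2.77% of those of genes tested and 3.63% of all. A match is a string of letters and no evidence of binding.

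Of 35 tested genes that glucocorticoids are known to induce, 16 rose (45.7%), 1 fell and 18 were not called in the mean of the injected groups, where 6.82% of all genes tested rose. In all 3 groups 8 rose and 1 fell, where 1.02% and 0.862% of all genes did. With 2 groups only, a fit that counts differences among injected groups as spread, 10 rose and 1 fell. In that fit 203 of all 9747 genes tested rose and 197 fell. The median change over the members was 0.67 in the mean, 0.69 with T3, 0.51 with XCT790 and 0.54 with both, beside a median of -0.01 for all genes in each of these. The list was drawn up with results of these samples in view and is no independent evidence of its direction.

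Mt1, the zinc-binding metallothionein, had the largest rise of these. Its log2 level was 11.15, 10.64 and 10.45 on control arrays, 12.80, 14.52 and 15.47 with T3, 15.16, 14.33 and 15.42 with XCT790, and 15.08, 14.94 and 15.19 with both. All injected arrays were above all controls, and T3 array 1 was the lowest of the 9. The mean rise was 4.02 (SE 0.42, adjusted p = 5.72e-05), a 16.3-fold difference, and its 95% interval ran from 3.11 to 4.94.

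Mt2, its neighbour and near relative, was much dimmer and less certain. The Mt2 probe read 5.37, 5.24 and 4.43 on control arrays and 4.96, 7.31 and 9.33 with T3, where array 1 lay within the control range. With XCT790 it read 7.58, 6.34 and 8.53 and with both compounds 7.77, 7.33 and 7.70. The mean rise of 2.41 (SE 0.69, adjusted p = 0.0358 by limma) was not called in any injected group by itself. It lost its call without control array 1, 2 or 3 (adjusted p = 0.0779, 0.0961 and 0.141) and without any of 5 injected arrays (adjusted p = 0.0536 to 0.0566).

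Fkbp5, a co-chaperone that restrains the glucocorticoid receptor, was separated by a wide margin. It stood at 6.54, 6.72 and 6.98 on control arrays, 8.69, 9.47 and 9.71 with T3, 10.24, 9.66 and 9.84 with XCT790, and 9.65, 9.78 and 9.67 with both. The groups did not overlap, and T3 array 1 was again the lowest injected array. The rise was 2.54 with T3, 3.17 with XCT790 and 2.95 with both (SE 0.23 each; adjusted p = 1.93e-05, 6.40e-05 and 4.70e-06 by limma).

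Lpin1, a phosphatidate phosphatase that makes diacylglycerol and also acts in the nucleus as a coactivator, moved by nearly the same amount in all 3 groups. Control arrays read 7.62, 7.97 and 7.91, T3 arrays 9.92, 10.80 and 10.65, XCT790 arrays 10.76, 10.47 and 10.39, and arrays with both 10.12, 10.15 and 10.64. The lowest injected array was well above the highest control. The rises were 2.62, 2.71 and 2.47 (SE 0.22 each), and a further probe for the gene gave a mean rise of 2.61.

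**Figure D2:**
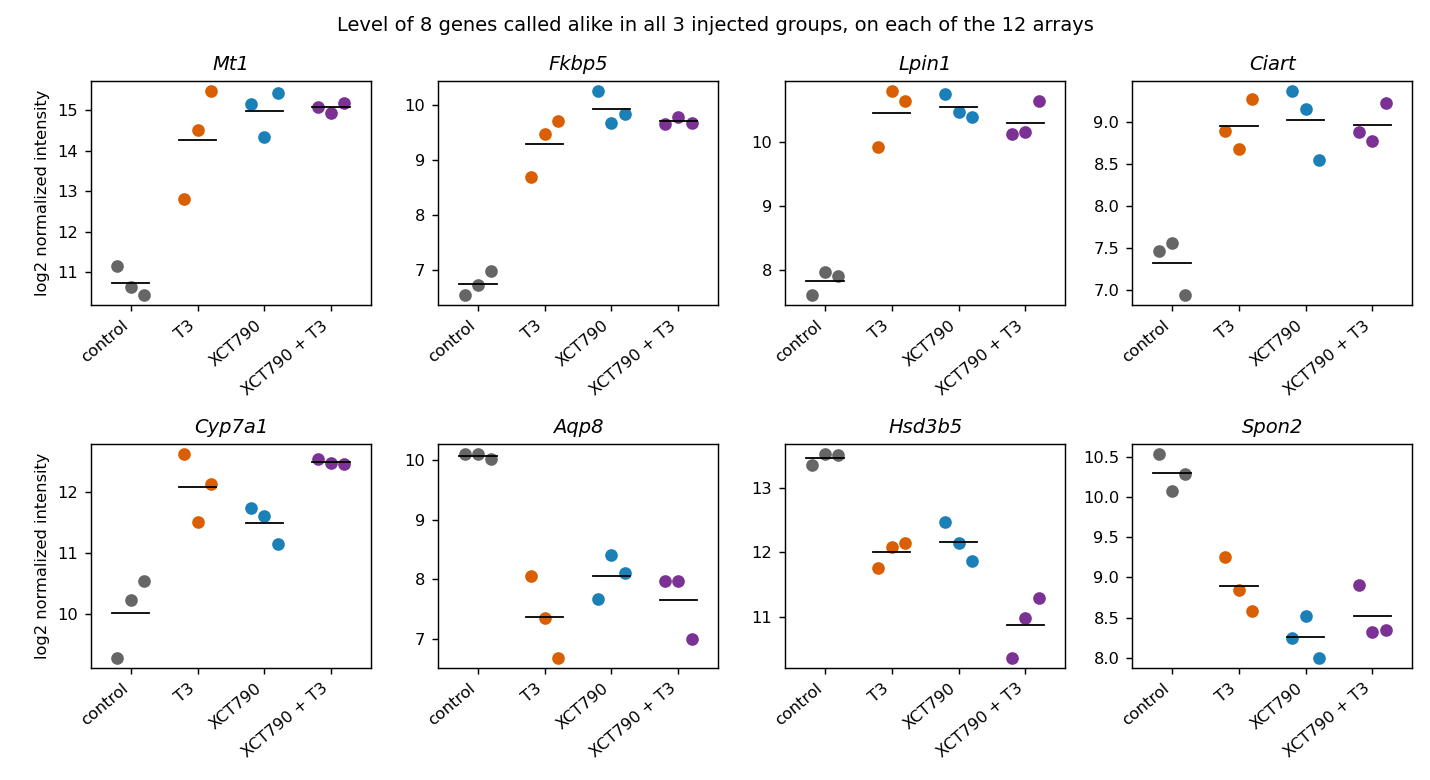
Log2 normalized intensity (vertical axis) of 8 alike genes on each array, by group (horizontal axis); points are arrays and bars the means of 3. In each panel the 9 injected arrays lie clear of the 3 controls, as for Fkbp5, where no control exceeds 6.98 and no injected array is under 8.69.

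The other members that rose in all 3 groups were smaller. Cebpb, a transcription factor of the acute and metabolic response, rose by 1.54 in the mean (SE 0.10), with 1.89 for T3, 1.01 for XCT790 and 1.71 for both, and it differed among injected groups (moderated F test, adjusted p = 0.000783). Ddit4, an inhibitor of the growth kinase complex mTORC1, rose by 1.23, 1.38 and 1.43 in the same order, with no call for a difference among them (adjusted p = 0.842). Map3k6, a stress-activated kinase, rose by 1.02 in the mean, Angptl4, a secreted inhibitor of lipoprotein lipase, by 0.89, and Pck1, a rate-setting enzyme of gluconeogenesis, by 0.68. These last 3 were alike in 7, 3 and 3 of the 12 fits without 1 array, and Ddit4 in 8. The other Angptl4 probe gave a mean change of -0.26, so its probes disagree. Angptl4 and Pck1 were not alike with the median scaling over all probes or with the replicate number as a block. Pck1 was also not alike with median scaling over the kept probes. Sgk2, a kinase related to the glucocorticoid-induced Sgk1, was the member that fell, by 0.98 (SE 0.16), with changes of -0.68, -1.37 and -0.89, and was alike in 8 of those fits.

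Members called for the mean but not in every group included Per1, Tsc22d3 and Lcn2. Tsc22d3, the anti-inflammatory leucine zipper protein, rose by 0.62 (SE 0.19, adjusted p = 0.0480), and its groups overlapped: controls read 10.07, 10.59 and 11.24, and injected arrays ran from 10.89 to 11.64. Without control array 1 the change was 0.34 with an adjusted p of 0.232 by limma. The Tsc22d3 call was lost in 14 of the 25 settings tried. These included leaving out any 1 of the T3 arrays or of the arrays with both compounds. Lcn2, an iron-scavenging protein of inflammation, stood at 6.27, 5.92 and 5.85 on control arrays and spread widely on injected ones, with 7.34, 9.35 and 10.85 for T3, 8.57, 6.52 and 10.11 for XCT790 and 10.76, 9.05 and 10.26 for both. It rose by 3.19 (SE 0.73, adjusted p = 0.0125), with no overlap, and XCT790 array 2 was nearest to control. Its adjusted p was 0.0568 without control array 2 and 0.0529 without control array 3. The XCT790 group by itself was not called (2.39, adjusted p = 0.176).

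Of 26 acute phase genes tested 9 rose in the mean (34.6%, against 6.82% of all genes), 0 fell and 17 were not called, and 1, the interleukin-6 receptor Il6ra, rose in all 3 groups. The count of rises ran from 3 to 11 when 1 array was left out. It was 4 with 2 groups only and 5 with the median scaling over all probes. Of all 9747 genes tested 203 rose with 2 groups only and 282 with that scaling. The serum amyloids Saa1 and Saa2 rose by 2.66 (SE 0.78) and 2.91 (SE 0.87) in the mean, with adjusted p of 0.0410 and 0.0436 by limma, and neither was called for T3 or for XCT790 alone. Of 15 neutrophil markers on the array 5 were tested, of which 0 rose and 1 fell (20.0%, against 7.75% of all genes). Their summed intensity was 203 to 244 in controls and 178 to 250 over injected arrays.

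Of 17 clock genes tested 3 rose in the mean (Ciart, Usp2 and Per1) and 1 fell (Nr1d1), 17.6% and 5.88%, beside 6.82% and 7.75% of all genes tested. Ciart, a repressor of the CLOCK and BMAL1 complex, stood at 7.46, 7.56 and 6.94 on control arrays, 8.89, 8.67 and 9.26 with T3, 9.36, 9.15 and 8.54 with XCT790 and 8.88, 8.77 and 9.23 with both. The injected groups overlapped one another and lay clear of control. Its rises were 1.62, 1.70 and 1.64 (SE 0.23 each), a range of 0.08, and 2 further probes gave mean rises of 1.47 and 1.53. It was the gene with the smallest range relative to its mean among alike genes with a mean change of at least 1.

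Usp2, a ubiquitin protease with a daily rhythm in liver, rose more with XCT790. Controls read 9.22, 9.25 and 8.94 and XCT790 arrays 11.24, 11.16 and 10.87, while T3 arrays lay at 10.14 to 10.38 and arrays with both at 10.14 to 10.62. The rises were 1.13, 1.96 and 1.21 (SE 0.15 each), and the groups differed (F test, adjusted p = 0.00426). Nr1d1, a repressor of Bmal1, fell by 1.00 in the mean (SE 0.19, adjusted p = 0.00381) but was not called for T3 alone (-0.66, adjusted p = 0.0746). Per1 rose by 0.70 in the mean and was not called with both compounds (0.48, adjusted p = 0.0575). Dbp, a strongly rhythmic clock output, gave -0.23 (SE 0.11, adjusted p = 0.187), which was not called. Cipc, a repressor of CLOCK that was picked out after its values were seen, rose by 1.10 and was alike.

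Genes of fat handling under PPARA control rose in part. Of 29 members 12 rose (41.4%) and 2 fell (6.90%) in the mean, beside 6.82% and 7.75% of all genes tested. With 2 groups only, 8 rose and 0 fell, where 203 and 197 of all 9747 genes tested did. Alike and upward were 5, where 1.02% of all genes were: Cyp4a14, Plin4, Plin5, Mgll and Angptl4, whose other probe gave -0.26. Over the 29 members the medians were 0.41 in the mean, 0.38 with T3, 0.41 with XCT790 and 0.37 with both. Cyp4a14, a fatty acid hydroxylase, stood at 10.64, 10.06 and 9.56 on control arrays, 12.01, 12.58 and 10.77 with T3, 12.22, 12.57 and 11.86 with XCT790 and 13.04, 12.25 and 11.50 with both. All injected arrays exceeded all controls, by a small margin for T3 array 3. The rise was 2.00 in the mean (SE 0.38, adjusted p = 0.00405), and the gene was alike in 6 of the 12 fits without 1 array. It belongs to a family of closely similar copies, and which copies its probe reads was not tested.

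The lipid droplet proteins Plin4 and Plin5 differed in evenness. Plin4 read 6.65, 6.07 and 6.21 on control arrays, 7.50, 8.39 and 7.33 with T3, 9.64, 9.52 and 8.33 with XCT790 and 7.53, 7.72 and 8.21 with both; the XCT790 group had the highest mean and no injected array fell into the control range. Its changes were 1.43, 2.85 and 1.51 (SE 0.36 each; F test, adjusted p = 0.0228). Plin5 rose by 1.28, 1.49 and 1.13 (SE 0.17 each), with an adjusted p of 0.308 for a difference among them. Mgll, which cleaves monoacylglycerol, rose by 1.20, 0.49 and 1.05, least with XCT790, and was alike in 7 of the 12 fits without 1 array, against 9 for Plin4. Pnpla2, the main triglyceride lipase of droplets, also rose in all 3 groups, by 1.03 in the mean, and was picked out after its values were seen. Pnpla2 was alike in 9 of the 12 fits without 1 array. Neither Pnpla2 nor Mgll was alike with the median scaling over all probes.

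Of 23 genes of fasting, FOXO and insulin signalling, 4 rose and 4 fell in the mean (17.4% each), beside 6.82% and 7.75% of all genes tested. With 2 groups only, 3 rose and 0 fell, where 203 and 197 of all 9747 genes tested did. Foxo1, the insulin-restrained transcription factor that drives gluconeogenic genes, stood at 7.60, 7.47 and 7.97 on control arrays, and injected arrays ran from 8.49 to 9.37 with no overlap. It rose by 1.40, 1.04 and 1.38 (SE 0.18 each). Among lipogenesis genes 7 of 28 rose and 5 fell, and the alike ones were Lpin1 and Thrsp. Ppp1r3b, which targets protein phosphatase to glycogen and was picked out after its values were seen, rose by 1.54 in the mean.

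**Figure D3:**
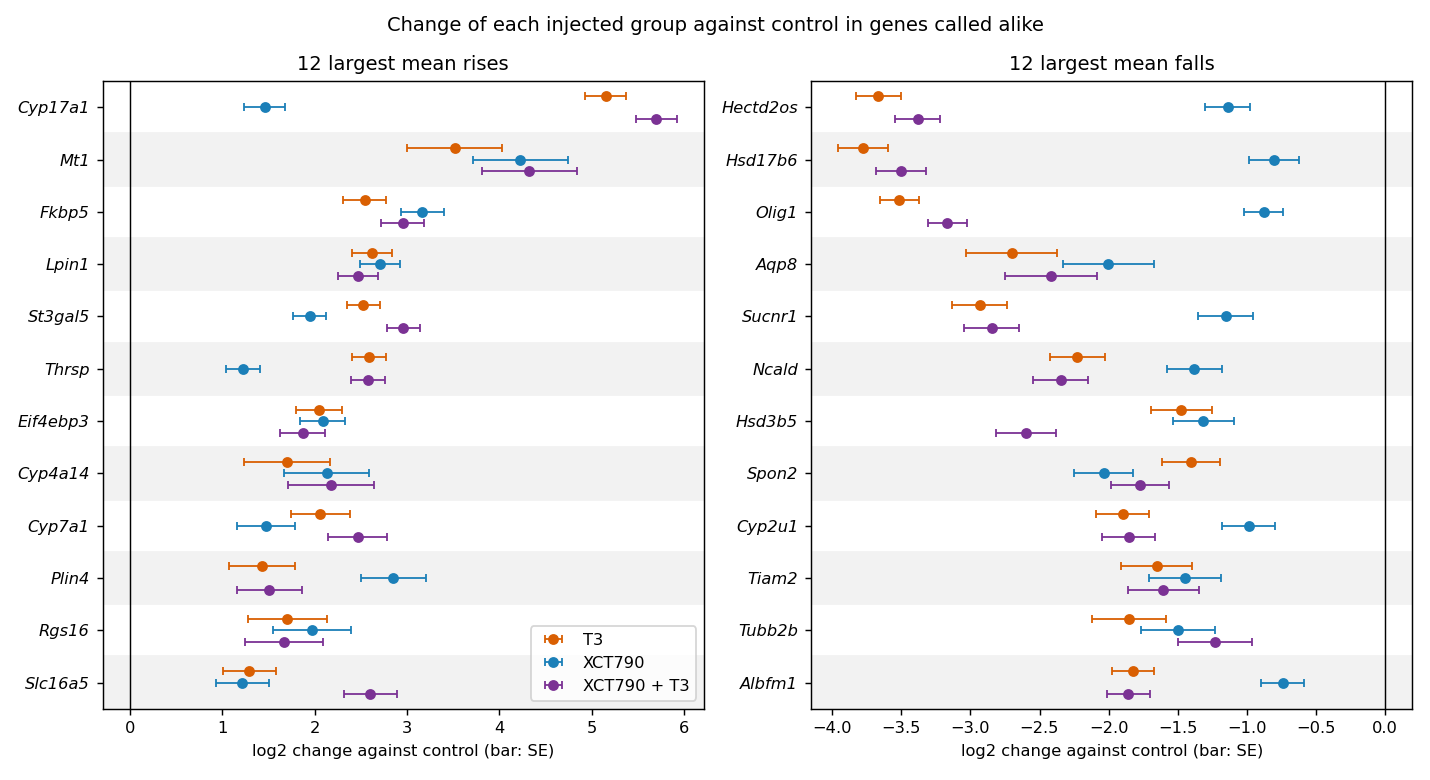
Log2 change against control (horizontal axis, bars 1 SE) of T3, XCT790 and XCT790 with T3, for the 12 alike genes with the largest mean rise (left) and fall (right). The 3 points nearly coincide for Lpin1, Eif4ebp3 and Tiam2, while XCT790 lies apart from both T3 groups for Cyp17a1, Thrsp, Hsd17b6 and Olig1.

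Alike in sign was often not alike in size. The range of the 3 changes was at most 0.5 times their mean in 115 of the 183 genes, 62 higher and 53 lower, and these are called even below. The injected groups differed by the F test in 58 of the 183, 32 higher and 26 lower, against 17.7% of all genes tested. XCT790 gave the smallest of the 3 changes in 46 of the 99 genes that rose and 49 of the 84 that fell, and XCT790 with T3 the largest in 44 and 44. The plot of 3 changes by gene shows both kinds.

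Cyp17a1, the steroid hydroxylase and lyase of androgen synthesis, had the largest mean rise and was among the least even. Controls read 7.12, 7.41 and 7.54, XCT790 arrays 9.37, 8.55 and 8.53, T3 arrays 12.60, 12.39 and 12.54, and arrays with both 13.14, 13.31 and 12.72. Each injected group was above control, with XCT790 between control and the T3 groups. The changes were 5.15, 1.46 and 5.70 in the order T3, XCT790 and both (SE 0.22 each; F test, adjusted p = 4.25e-07). Thrsp, a thyroid-responsive regulator of fatty acid synthesis, was similar in form, with rises of 2.59, 1.23 and 2.58. Its control arrays read 10.95, 11.42 and 10.68, and its XCT790 arrays 11.88, 12.46 and 12.38 without overlap.

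Cyp7a1, which sets the rate of bile acid synthesis, rose by 2.00 in the mean (SE 0.26, adjusted p = 0.000296), a 4.00-fold difference. It stood at 9.29, 10.23 and 10.55 on control arrays, 12.62, 11.50 and 12.14 with T3, 11.74, 11.61 and 11.15 with XCT790 and 12.54, 12.47 and 12.45 with both. Control array 1 was low, and the groups did not overlap. It was alike in 8 of the 12 fits without 1 array. Among 21 bile acid genes 6 rose and 4 fell in the mean, beside 6.82% and 7.75% of all genes tested. Hsd3b7, a later enzyme of the same pathway, fell in all 3 groups by 0.57 in the mean (SE 0.10). Hsd3b7 was alike in 3 of those 12 fits, and not with the replicate number as a block or with either median scaling (over all probes or over the kept ones).

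The remaining large rises had varied roles. St3gal5, which makes the ganglioside GM3, rose by 2.53, 1.95 and 2.96 (SE 0.18 each), from control levels of 9.57, 9.38 and 9.80 to injected levels of 11.25 to 12.74. Eif4ebp3, a repressor of translation initiation, was even, with 2.05, 2.09 and 1.87 (SE 0.25 each). Rgs16, which shortens G protein signals, rose by 1.71, 1.97 and 1.67 (SE 0.42 each), with 1 control array far from the others: controls read 9.66, 9.75 and 7.85 and injected arrays 10.37 to 11.63. Rgs16 was alike in 6 of the 12 fits without 1 array. Slc16a5, a monocarboxylate transporter, rose by 1.30, 1.22 and 2.61, and was alike in 6 of these fits, and was not alike with the median scaling over all probes or the replicate block. Coq10b, a coenzyme Q binding protein of mitochondria, followed Ciart in evenness among genes with a change of at least 1, at 1.05, 0.97 and 1.06. Its other 2 probes differed, with mean changes of -0.14 and 0.89. Itprip was not above background on any control array, and its injected mean was at least 1.70-fold higher.

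Nrg4, a growth factor secreted by fat and liver, rose by 0.99, 2.35 and 1.43 (SE 0.27 each), with T3 array 1 at 7.58 just under control array 3 at 7.61. Sult1d1, a sulfotransferase, rose by 1.64, 1.04 and 1.80, and Rrm2, a subunit of ribonucleotide reductase, by 1.74, 0.97 and 1.82. The other Sult1d1 probe gave a mean change of only 0.18. In amino acid catabolism 4 of 34 genes rose (11.8%) and 7 fell (20.6%), beside 6.82% and 7.75% of all genes tested. The alike ones were proline dehydrogenase Prodh (0.75 in the mean), the alanine transaminase Gpt2 (0.57) and the aromatic amino acid decarboxylase Ddc (-1.39). Prodh and Gpt2 were not alike with the median scaling over all probes, and Gpt2 also not with median scaling over the kept probes.

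Of 26 male-biased genes, which in mice depend on pulsed growth hormone, 15 fell in the mean (57.7%, against 7.75% of all genes), 1 rose and 10 were not called, with 3 (Hsd3b5, Cyp2u1 and Cspg5) lower in all 3 groups; the medians were -0.56 in the mean, -0.56 with T3, -0.48 with XCT790 and -0.72 with both. Of 15 female-biased genes 8 rose (53.3%, against 6.82%), 0 fell and 7 were not called, with Cyp17a1 and Cyp4a14 alike; the medians were 0.81, 0.44, 0.32 and 1.27 in the same order. With 2 groups only, 5 male-biased genes fell and 2 female-biased genes rose. In that fit 197 of all 9747 genes tested fell and 203 rose. Cspg5 was alike in 5 of the 12 fits without 1 array and in none of the fits with either median scaling, without background correction or with the replicate block. By group, 11 male-biased genes fell with T3, 6 with XCT790 and 13 with both, where the shares over all genes tested were 8.85%, 2.15% and 9.70%. Cux2, a female-biased repressor in liver, rose by 2.40 in the mean but by 0.24 with XCT790, which was not called (adjusted p = 0.700).

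Hsd3b5, a male-specific steroid-metabolizing enzyme, was bright and separated on every array. It stood at 13.36, 13.54 and 13.53 on control arrays, 11.77, 12.09 and 12.15 with T3, 12.47, 12.14 and 11.87 with XCT790 and 10.36, 10.97 and 11.30 with both. The group given both compounds was the lowest, and no injected array reached control. The changes were -1.47, -1.31 and -2.60 (SE 0.22 each; F test, adjusted p = 0.00303). Cyp2u1, a fatty acid hydroxylase, fell by 1.58 in the mean; with T3 it was not above background on any array and at least 3.15-fold below control, and its other probe gave -0.13. Moxd1, a monooxygenase, fell by 2.51 in the mean (SE 0.58, adjusted p = 0.0127) with near-equal changes of -2.70, -2.47 and -2.35, but XCT790 by itself was not called (adjusted p = 0.0745).

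**Figure D4:**
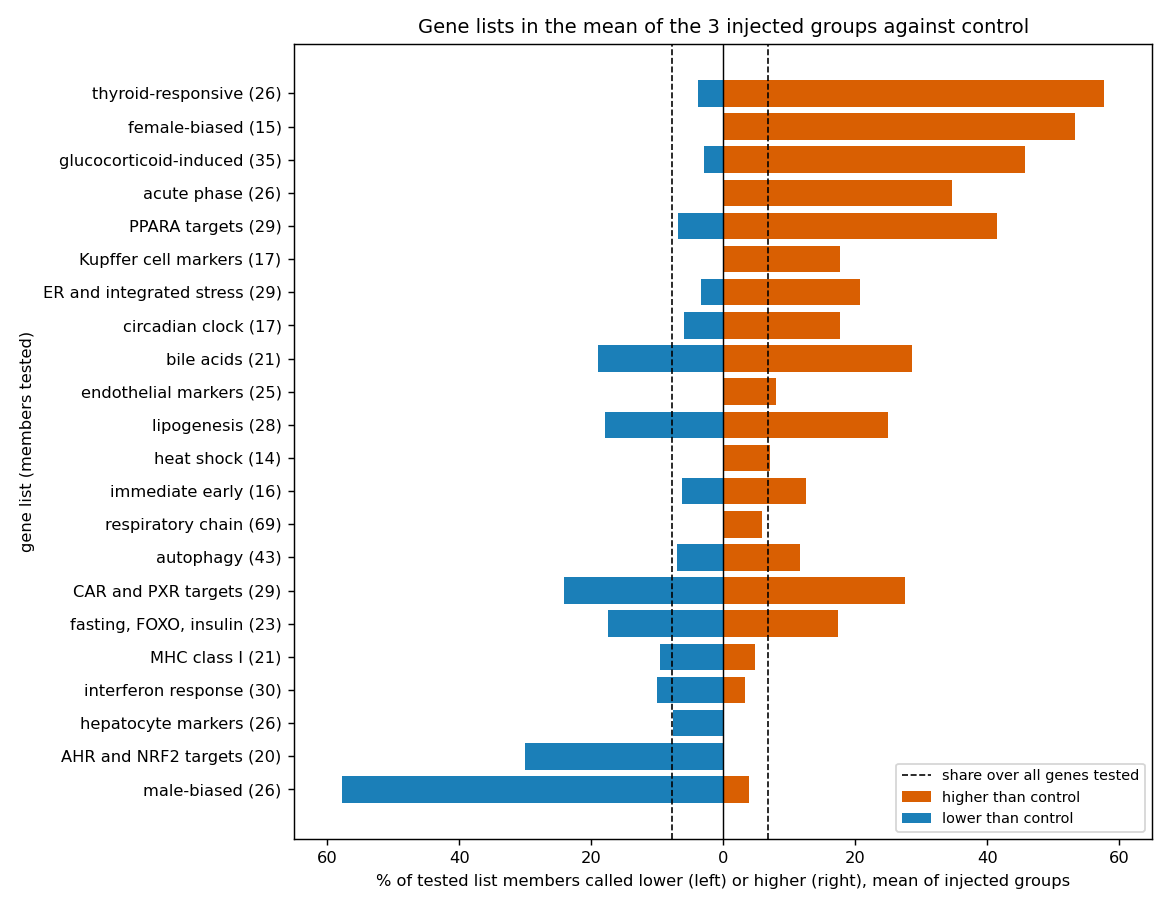
Share of tested members called higher (right) or lower (left) in the mean of the injected groups, in % (horizontal axis), for 22 gene lists (vertical axis, number tested in brackets); dashed lines give the shares over all genes tested, 6.82% and 7.75%. Male-biased genes extend furthest to the left, with 15 of 26, and thyroid-responsive, female-biased and glucocorticoid-induced genes furthest to the right, with 15 of 26, 8 of 15 and 16 of 35.

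Among genes lower in all 3 groups, Aqp8, a water channel of hepatocytes, fell by 2.37 in the mean (SE 0.27, adjusted p = 0.000112), a 5.18-fold difference. Control arrays were tight at 10.10, 10.10 and 10.01. T3 arrays read 8.05, 7.36 and 6.69, XCT790 arrays 7.68, 8.42 and 8.10, and arrays with both 7.98, 7.98 and 7.00. All 9 were below control, the injected groups overlapped one another, and the F test made no call (adjusted p = 0.307). A further Aqp8 probe gave a mean change of -2.13.

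Spon2, a secreted matrix protein, read 10.53, 10.07 and 10.29 on control arrays, 9.26, 8.84 and 8.58 with T3, 8.25, 8.53 and 8.00 with XCT790 and 8.91, 8.33 and 8.35 with both. It fell by 1.41, 2.04 and 1.77 (SE 0.21 each) without overlap. Its other kept probe gave a mean change of -0.12, so the probes disagree. Tiam2, an exchange factor for the small GTPase Rac, was the most even of the large falls, at -1.65, -1.45 and -1.60 (SE 0.26 each). Tubb2b, a beta-tubulin, fell by 1.85, 1.50 and 1.23 (SE 0.27 each).

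Several large falls came mostly from the groups with T3. Olig1, a transcription factor known from oligodendrocytes, stood at 9.65, 9.28 and 9.67 on control arrays, 8.57, 8.77 and 8.64 with XCT790, 6.20, 5.99 and 5.87 with T3 and 6.38, 6.56 and 6.15 with both. The XCT790 arrays lay between, below control and far above the T3 arrays. Its changes were -3.51, -0.88 and -3.17 (SE 0.14 each; F test, adjusted p = 5.46e-07). Sucnr1, the succinate receptor, changed by -2.93, -1.15 and -2.85, and Albfm1, a member of the albumin family, by -1.82, -0.74 and -1.86.

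Hsd17b6, a hydroxysteroid dehydrogenase, was not above background with T3 and at least 11.6-fold below control there, while with XCT790 it fell by 0.80 (SE 0.18, adjusted p = 0.0290). That smallest change lost its alike call without any 1 of the 3 control arrays or XCT790 array 1 or 2. Hsd17b6 was also not alike with the replicate number as a block. With 2 groups only, its mean change was not called (adjusted p = 0.0580 by limma). The noncoding transcript Hectd2os was at least 8.57-fold below control with T3 and at least 8.39-fold below with both, and fell by 1.14 with XCT790 (SE 0.16). Ncald, a neuronal calcium sensor, was at least 4.01-fold and 3.92-fold below in the same groups and fell by 1.38 with XCT790 (SE 0.20). Each bound divides the control mean by the dimmest signal that still counted as detected on the arrays below background.

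The 3 alike genes of the interferon response and MHC class I lists were lower. Of 30 interferon-response genes 3 fell (10.0%) and 1 rose (3.33%), beside 7.75% and 6.82% of all genes tested. The alike ones were Oasl1 (-0.81, SE 0.15), an antiviral protein, and Ifi47 (-0.93, SE 0.21), an interferon-induced GTPase. Oasl1 was alike in 5 and Ifi47 in 2 of the 12 fits without 1 array, and Psmb9 in all 12. Ifi47 was not called for the mean without control array 2 (-0.80, adjusted p = 0.0710 by limma). Psmb9, a catalytic subunit of the immunoproteasome, read 9.52, 9.60 and 9.27 on control arrays and 8.22 to 9.00 on injected ones. It changed by -0.71, -1.04 and -0.80 (SE 0.15 each), and no array overlapped. It was 1 of 2 members of 21 MHC class I genes that fell (9.52%), with 1 that rose (4.76%). The share that fell in either list was near that of all genes. Of 7 MHC class II genes 0 were called by limma, with 1 at an unadjusted p under 0.05. Without control array 3 Cd74, H2-Aa and H2-Ab1 were called lower in the mean, at -0.91, -1.22 and -1.02 (adjusted p = 0.0326, 0.0493 and 0.0471 by limma).

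Keratins that the mesothelial list holds, and that hepatocytes also make, were lower. Of 4 tested members of the list 2 fell in the mean (50%, against 7.75% of all genes), Krt18 and Krt8, and 0 rose. Dpp4 (changes of -0.25 to -0.04) and Upk3b (-0.11 to 0.19) were called in none of the 25 settings tried. Their lowest adjusted p by limma was 0.255 for Dpp4 and 0.691 for Upk3b. Krt18 fell in all 3 groups, by 1.49, 1.00 and 1.78 (SE 0.19 each), from 10.34, 10.72 and 10.59 on control arrays to 8.64 to 9.78 on injected ones. Its partner Krt8 fell by 1.22 in the mean but was not called with XCT790 (-0.45, adjusted p = 0.219). The summed level of that list was 6916 to 7735 in controls, 3156 to 4034 with T3, 5140 to 6298 with XCT790 and 3648 to 3872 with both; of its defining genes mesothelin was detected on 0 arrays and Upk3b on 12. Car3, a carbonic anhydrase abundant in fat, muscle and liver, fell by 1.45, 0.74 and 2.01 (SE 0.19 each), beside an Adipoq probe detected on 1 array. Car3 was alike in 2 of the 12 fits without 1 array, and not with the replicate block or either median scaling. Ngfr, a receptor found on stellate cells, fell by 0.70 in the mean, while 1 other of 16 stellate markers, Ecm1, was called, with a rise of 0.25. The Ecm1 call was lost without any of the 3 control arrays (adjusted p = 0.0909 to 0.122), and in 13 of the 25 settings tried. The other Ecm1 probe went the opposite way, with a mean change of -0.19. Of the stellate markers 6.25% rose and 6.25% fell, near the 6.82% and 7.75% of all genes. Of 26 hepatocyte markers 2 fell (7.69%, near the 7.75% of all genes) and 0 rose. Their summed level was 479385 to 491698 in controls and 467941 to 482846 over the injected arrays.

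Kupffer cell markers were not alike in the 3 groups. Of 17 tested, 11 rose with T3, 4 with both and 0 with XCT790, where 7.22%, 8.93% and 2.26% of all genes tested rose. Their summed level was 8886 to 14416 in controls, 17636 to 18190 with T3, 10540 to 12603 with XCT790 and 15359 to 19163 with both. Endothelial markers gave 2 rises of 25 in the mean (8.00%, near the 6.82% of all genes tested).

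Esrra, the receptor that XCT790 targets, rose by the same amount in all 3 groups, whether or not XCT790 was given. Control arrays read 9.50, 9.38 and 9.29, T3 arrays 9.93, 10.08 and 9.89, XCT790 arrays 9.96, 10.16 and 9.77 and arrays with both 10.01, 9.91 and 9.94. The changes were 0.58, 0.57 and 0.57 (SE 0.11 each; adjusted p = 0.00444, 0.0148 and 0.00490 by limma), a range of 0.01, and another probe gave 0.40. With the median scaling over all probes the mean rise was 0.42 (adjusted p = 0.0415) and the gene was no longer alike, and it was alike in 8 of the 12 fits without 1 array. Of 23 genes in the ESRRA network 5 rose (21.7%) and 2 fell (8.70%) in the mean, beside 6.82% and 7.75% of all genes tested. Esrra was the only alike member. Of 69 respiratory chain genes 4 rose (5.80%, under the share of all genes) and 0 fell in the mean, with 0 alike.

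Among 43 autophagy genes 5 rose (11.6%) and 3 fell (6.98%), beside 6.82% and 7.75% of all genes tested. Sqstm1, the cargo receptor p62, fell in all 3 groups by 0.48, 0.41 and 0.55 (SE 0.09 each), from 11.28, 11.06 and 11.17 on control arrays to 10.57 to 10.80 on injected ones. It was alike in 7 of the 12 fits without 1 array and with neither median scaling. Ulk1, the kinase that starts autophagosome formation, rose by 0.78 in the mean but was not called with XCT790 (0.28, adjusted p = 0.150). Of 20 AHR and NRF2 targets 6 fell (30.0%, against 7.75% of all genes) and 0 rose, and 0 were alike.

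**Figure D5:**
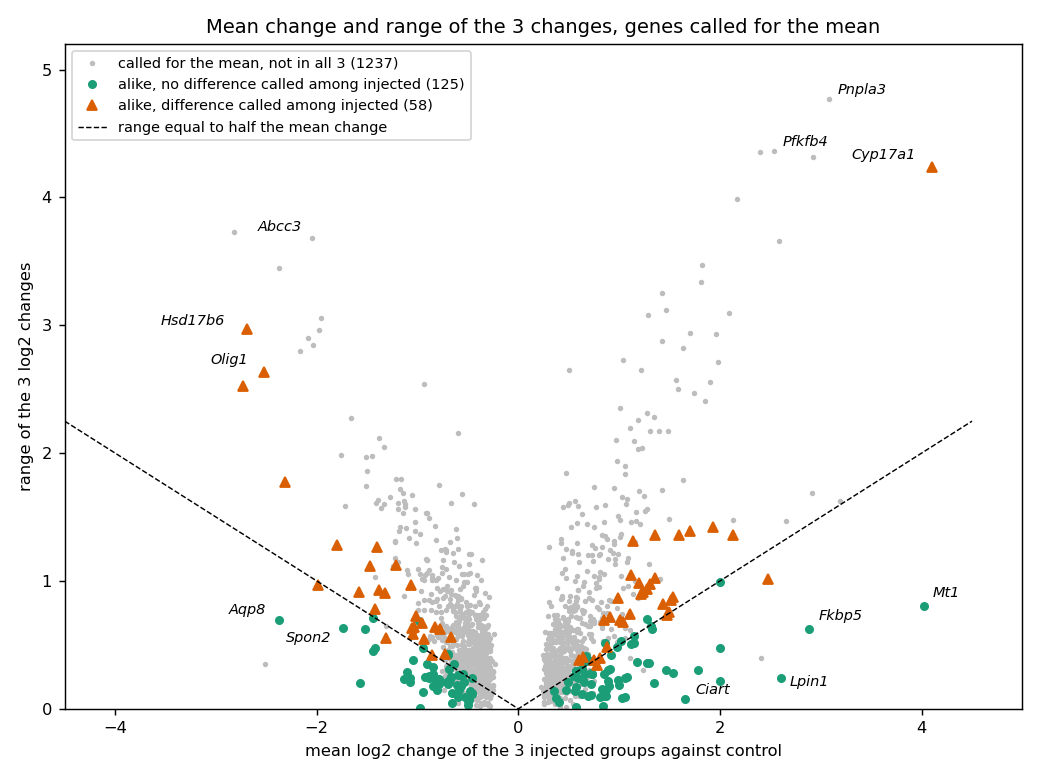
Mean log2 change of the 3 injected groups against control (horizontal axis) and the range of their 3 changes (vertical axis) for the 1420 genes called for the mean; green circles and orange triangles are the 183 alike genes. Mt1, Fkbp5, Lpin1 and Ciart lie below the dashed line, on which the range is 0.5 times the mean change, and Cyp17a1 and Olig1 far above it.

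Of the 1420 genes called for the mean, the 3 changes had the same sign in 1261 and not in 159. Dio1, the deiodinase that activates thyroid hormone, rose by 1.28 in the mean from changes of 2.13, -0.19 and 1.90, and Pnpla3, a lipid droplet lipase, by 3.08 from 4.73, -0.04 and 4.56. The plot of mean change and range places such genes high above the alike ones. Cyp2b10, a target of the xenobiotic receptor CAR, was not above background in controls; it was at least 14.9-fold higher with XCT790 and at least 4.84-fold higher with both, and gave 0.05 with T3. Of 26 thyroid-responsive genes 15 rose (57.7%) and 1 fell (3.85%) in the mean, beside 6.82% and 7.75% of all genes tested. With T3 16 rose and with XCT790 6, where 7.22% and 2.26% of all genes did. The members higher in all 3 groups were Thrsp, Cyp7a1, Rgs16, Upp2 and Pck1, the last alike in 3 of the 12 fits without 1 array.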

How the data were processed

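Per the labels' protocols, RNA from liver was purified with TRIzol and spin columns and amplified as biotin-labelled cRNA, and 12 samples were hybridized to Illumina mouse arrays, 1 array each. The authors deposited non-normalized intensity for every probe, linear and not scaled between arrays. Beside each intensity the deposited table gives a detection p-value, per the file headers. A matrix of processed intensity was deposited too. The deposited matrix matched quantile normalization of the non-normalized intensity. The submitters' processing notes name Partek 6.6 without a step. Arrays were grouped by the injection in their labels.

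The non-normalized values were background-corrected with limma's normexp model from the detection p-values (offset 16), then quantile-normalized and log2-transformed, with limma 3.58.1 in R 4.3.3. Log2 changes of dim genes are understated. A probe was kept if its detection p was under 0.05 on 3 or more arrays (17218 of 45281). Of all probes 34885 had 1 symbol in the platform annotation, 18 had several and 10378 none. The brightest probe stood for each gene, which left 9747 genes, 3374 with further probes; of the 78 alike genes with further probes, 73 had all of them in the same direction.

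Group means were fitted over 12 arrays with lmFit and contrasts tested with eBayes, p adjusted over all genes. Differences among injected groups were tested with the moderated F test. The procedure was tested on simulated data. Replicate numbers did not pair the arrays: the correlation of same-numbered deviations ran from -0.13 to 0.13, over 0.1 in 2 of 18 pairs. The precision is limited by 3 arrays per group.

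The genes named were the 12 largest alike rises and falls, the 8 most even, 6 with opposed groups, up to 4 per list with the lowest p, and a short list of genes of interest. Others are said to be picked out afterwards, or are list members, whose calls are given with their list. The members, the 36 lists and the motifs were chosen with earlier results of these data known. Lists not described in the text gave these rises and falls in the mean, beside 6.82% and 7.75% of all genes: metallothioneins and zinc transporters 2 and 1 of 11, cholesterol 2 and 1 of 18, CAR and PXR targets 8 and 7 of 29 (51.7% called, against 14.6% of all genes), endoplasmic reticulum and integrated stress 6 and 1 of 29, heat shock 1 and 0 of 14, immediate early 2 and 1 of 16, lymphocyte 0 and 0 of 6, bile duct 1 and 1 of 5 (40%), pancreas and fat 3 and 1 of 7 (57.1%), red cell 0 and 1 of 6, proliferation 1 and 1 of 23, and secreted hepatokines 4 and 5 of 22 (40.9%). Alternatives covered background correction, offset, scaling, the deposited matrix, filters, probe summary, spread, array weights, a replicate block, call rules and leaving out each array.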

Additional observations from a re-analysis of the deposited data

Results flagged for a closer look

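The injected groups differed from one another by the moderated F test in 1727 of 9747 genes, and in 58 of the 183 genes called alike. Among genes called for the mean whose groups did not move together, the range of the 3 log2 changes was 4.77 for Pnpla3, a lipid droplet lipase, 4.36 for Pfkfb4, which sets the level of a regulator of glycolysis, and 3.68 for Abcc3, a bile acid exporter. It was 3.47 for the kinase Ttbk1, 3.34 for the potassium channel Kcnk1 and 2.94 for the organic anion transporter Slc22a7. In each of these 6 genes the groups with T3 lay apart from XCT790 alone. Pfkfb4 stood at 5.65, 5.59 and 5.94 on control arrays, 8.69, 9.69 and 9.79 with T3, 5.93, 5.28 and 5.33 with XCT790 and 9.81, 10.11 and 9.71 with both. Abcc3 stood at 10.92, 10.53 and 10.67 on control arrays and 10.79, 11.04 and 10.89 with XCT790, but at 7.37, 7.26 and 7.05 with T3 and 7.91, 7.89 and 7.72 with both.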

How the results depend on the processing

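No called change of a named gene turned its sign under the settings tried. The uncalled changes of Krt7 (-0.03 to 0.19), Upk3b (-0.11 to 0.19), S100a8 (-0.12 to 0.32), Coro1a (-0.42 to 0.04) and Mmp9 (-0.17 to 0.04) crossed 0. Coro1a was called without control array 3 (adjusted p = 0.0403 by limma). Over the 160 named genes 3730 of their results kept their side of the threshold, 169 lost the call and 84 gained it. With 2 groups only, so that differences among injected groups count as spread, 400 genes were called for the mean (203 higher, 197 lower), 65 named genes lost the call, and glucocorticoid-induced, female-biased and male-biased genes gave 10, 2 and 5 calls in their main direction in place of 16, 8 and 15. A minimum change of 0.5 left 769 calls for the mean, and unadjusted p in each comparison gave 610 alike genes. Without background correction XCT790 gave 647 calls. Median scaling over all probes gave 942 calls for T3, 235 for XCT790, 105 alike genes, and for the mean 1130, of which 25% were higher against 46.8%; for XCT790 with T3 it gave 2377, of which 12.1% were higher. Median scaling over kept probes gave 1347 and 175, with 60.8% of 434 XCT790 calls higher against 51.2%. The replicate block gave 1332 calls for the mean, 1523 for T3, 343 for XCT790, 1707 for both compounds, 163 alike and 1612 by the F test, and 4 of 12 arrays correlated best with their own number. Leaving out 1 array gave 849 to 1412 calls for the mean, 1125 to 1602 for T3, 188 to 421 for XCT790 (lowest without XCT790 array 1), 1239 to 1861 for both, 98 to 178 alike and 1046 to 1755 by the F test (lowest without XCT790 array 2). The causes were not tested. Dim genes have only bounds where a group is not above background.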
